A study of Mus musculus with 50 samples.

Results

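The transcripts of 10 secreted cytokines were followed in hippocampal microglia: Tnf, Il6, Il10, Il12a, Il12b, Il27, Osm, Lif, Csf1 and Csf3. They were chosen by gene symbol, all 10 were found among the 53700 genes of the count tables, and 6 of them (Tnf, Il6, Il12b, Il27, Osm and Csf1) passed the expression filter of 1 CPM (counts scaled to library size) or more in over 2 mice, which left 16696 genes for testing. The other 4 (Il10, Il12a, Lif and Csf3) stayed below it and are given as values without a test in the main model. The filter used CPM by total counts, whereas the CPM printed below are also scaled by a normalization factor (TMM). The data came from 50 male C57BL/6J mice that grew up with limited bedding and nesting material between postnatal days 2 and 9, here called early-life stress (ELS), or with standard bedding (CTR). At P9, 12 CTR and 13 ELS mice were sampled without injection. At P200, mice received an intraperitoneal injection of PBS (7 CTR, 6 ELS) or of 1 mg/kg lipopolysaccharide from E. coli O111:B4 (LPS; 7 CTR, 5 ELS) and were killed 3 hours later. Microglia were sorted as live CD45int CD11b+ cells and sequenced in bulk per mouse, so fewer expressing cells and less RNA per cell cannot be told apart. Myelin was removed on Percoll at P200 but not at P9. The ages also came from separate cohorts, and only the P200 mice were injected. Age, cohort, injection and this isolation step therefore cannot be told apart either.

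Cytokines are small secreted proteins by which immune cells instruct each other, and microglia, the resident macrophages of the brain, produce many of them when Toll-like receptor 4 binds bacterial LPS. This receptor works through NF-κB and MAP kinases, which switch on early inflammatory genes, and the same pathway induces inhibitors and RNA-degrading proteins that later turn those genes off. TNF acts through its own receptors, IL-12 and IL-27 pair a helical subunit with a receptor-like partner, IL-6, OSM and LIF share the receptor chain gp130, and CSF1 keeps microglia alive through CSF1R.

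The libraries held between 5152838 and 42231258 counts, with a median of 19960409.5, and between 12482 and 21100 detected genes. The libraries with the fewest genes were those of mice P9_19.3_ELS (12482), P9_19.2_ELS (15731) and P200_1.1_CTR_PBS (12854). Among the member values below, P200_1.1_CTR_PBS holds the CTR-PBS minima of Tnf, Il6 and Osm and the maximum of Il27. P9_19.2_ELS holds the P9-ELS maximum of Il6 and minima of Il27 and Csf1. P9_19.3_ELS holds the P9-ELS minimum of Tnf and, with P9_19.1_ELS, that of Il6. Several extremes of the marker sums below also come from these libraries. Summed microglial markers (6 genes) lay between 31000 and 73700 CPM in all groups, and all 6 had a median over 1 CPM in every group. Of 6 neutrophil markers, Ly6g and Retnlg were at 0 in all 25 P200 mice and the sum did not exceed 3.68 CPM at P200.

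To show the sequence next to the measurements, the 250 bases upstream of the annotated start were taken from RefSeq (GRCm38.p6 table), which held windows for 6 of the 10 members, and each window was placed in GRCm39 by a single exact match. Il10, Il27, Osm and Csf3 were not in that table. Windows of 4 tested members are printed 5′ to 3′ on the gene's own strand: Tnf and Il12b with the largest rise after LPS, Csf1 with a small one, and Il6 with the largest difference between ages. The windows of Il12a and Lif, both below the expression filter, are not printed. Bases inside the GENCODE gene body were cut off, which leaves 250 bases of Tnf (chr17:35420984-35421233, minus strand), 250 of Il6 (chr5:30217862-30218111, plus strand), 168 of Il12b (chr11:44290640-44290807, plus strand) and 229 of Csf1 (chr3:107667807-107668035, minus strand). Capitals mark matches, on either strand, to the NF-κB consensus, the C/EBP motif TTNNGCAA, the AP-1 motif TGANTCA and the TATA box TATAAA. None of the matches overlapped another.
Tnf: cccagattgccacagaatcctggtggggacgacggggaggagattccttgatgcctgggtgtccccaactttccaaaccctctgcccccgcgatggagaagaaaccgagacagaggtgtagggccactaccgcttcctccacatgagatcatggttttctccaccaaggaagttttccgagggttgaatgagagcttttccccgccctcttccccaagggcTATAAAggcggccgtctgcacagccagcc
Il6: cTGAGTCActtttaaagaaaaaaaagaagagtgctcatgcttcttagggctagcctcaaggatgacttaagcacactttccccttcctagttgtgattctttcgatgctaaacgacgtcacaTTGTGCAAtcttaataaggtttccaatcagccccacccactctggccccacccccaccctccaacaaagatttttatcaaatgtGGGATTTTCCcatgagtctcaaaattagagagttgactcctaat
Il12b: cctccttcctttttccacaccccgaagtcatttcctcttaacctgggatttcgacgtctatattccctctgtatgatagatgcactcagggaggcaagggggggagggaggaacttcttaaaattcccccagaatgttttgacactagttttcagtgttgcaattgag
Csf1: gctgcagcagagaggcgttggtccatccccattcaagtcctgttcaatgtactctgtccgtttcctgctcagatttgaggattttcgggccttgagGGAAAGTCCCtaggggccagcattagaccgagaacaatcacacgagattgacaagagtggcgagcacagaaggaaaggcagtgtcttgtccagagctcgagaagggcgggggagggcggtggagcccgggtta

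The Il6 window carried an NF-κB match (GGGATTTTCC) 35 to 44 bases upstream of the RefSeq start, a C/EBP match 121 to 128 bases upstream and an AP-1 match 243 to 249 bases upstream. The Csf1 window carried an NF-κB match on the opposite strand 145 to 154 bases upstream. The Lif window, not printed, carried an NF-κB match 169 to 178 bases upstream and an AP-1 match 222 to 228 bases upstream, although Lif was almost undetected. The Tnf window held a TATA box 24 to 29 bases upstream and no match to the other motifs, and the Il12b window, also when searched over its full 250 bases, held none of the 4. Among 32851 RefSeq windows of the same length, 7.25% held the NF-κB consensus, 9.56% the C/EBP motif, 6.75% the AP-1 motif and 12.4% the TATA box. These are matches of letters within a short window and not binding sites.

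The first question was how strongly each cytokine transcript responded to LPS in adult microglia. In CTR mice 5 of the 6 tested members rose (Tnf, Il12b, Il27, Osm and Csf1), against 6.02% of all tested genes called higher. In ELS mice the same 5 members rose, against 4.69% of all genes. The median log2 fold change of the 6 members was 2.42 in CTR and 2.71 in ELS mice, beside 0.00 and -0.04 over all genes tested. A gene was called where edgeR's quasi-likelihood test gave a Benjamini-Hochberg adjusted p under 0.05 together with a log2 fold change beyond 1 in either direction, and SE stands for the standard error of the log2 fold change. Judged by the mice alone, the LPS and PBS groups did not overlap for 5 of 6 members in CTR mice, where 4.92% of all genes were higher without overlap, and for 4 of 6 in ELS mice, where 5.65% were. Il12b passed the expression filter only through the LPS mice. Its own high values after LPS thus brought it into these counts and medians, so it adds no independent weight to them.

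Tnf (ENSMUSG00000024401, chr17:35418357-35420983, minus strand), the prototype inflammatory cytokine, was near the bottom of the range in PBS mice and the most abundant of the members per base after LPS. In CTR-PBS mice it ran from 0.661 through a median of 2.56 to 5.81 CPM, and in CTR-LPS mice from 134 through 225 to 433 CPM. In ELS-PBS mice it ran from 0.711 through 3.59 to 4.90 CPM, and in the 5 ELS-LPS mice it was 65.1, 137, 277, 368 and 663 CPM. All LPS mice thus lay far above all PBS mice, while the ELS-LPS mice held both the lowest and the highest LPS value. The log2 fold change was 6.50 in CTR mice (SE 0.60, adjusted p = 2.39e-12) and 6.59 in ELS mice (SE 0.66, adjusted p = 3.39e-11), a fitted fold of 90.7 and 96.0.

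Il12b (chr11:44290808-44305505, plus strand) encodes p40, the receptor-like subunit shared by IL-12 and IL-23, and was close to undetected without LPS. Only 2 of 7 CTR-PBS mice had any count, 12 counts in all, and the highest value was 0.389 CPM. In ELS-PBS mice 4 of 6 had no count, mouse P200_17.1_ELS_PBS had 1 count, and mouse P200_20.2_ELS_PBS reached 3.64 CPM. After LPS the CTR mice ran from 17.4 through a median of 51.0 to 96.3 CPM, and the ELS mice were at 37.0, 50.1, 78.4, 136 and 392 CPM. No LPS mouse came near the PBS range in either condition. Because the PBS counts were so few, the size of the step is poorly fixed, and the ratio of pooled CPM is given beside the fitted value. It was 761 in CTR mice (95% counting interval 435 to 1470) and 286 in ELS mice (225 to 369), and these intervals cover counting error only. The ELS ratio rests largely on single mice. P200_20.2_ELS_PBS held 67 of the 68 ELS-PBS counts, and P200_20.1_ELS_LPS held 5428 of the 10433 ELS-LPS counts. The ratios therefore do not show a difference between CTR and ELS mice. The test gave a log2 fold change of 9.42 in CTR (SE 1.14, adjusted p = 2.72e-08) and 7.95 in ELS mice (SE 1.08, adjusted p = 4.31e-07). Without mouse P200_20.2_ELS_PBS the ELS value became 13.3, with 1 count left in that PBS group, and without mouse P200_5.2_CTR_PBS, which held 10 of the 12 counts, the CTR value became 11.35.

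Il27 (chr7:126188181-126194209, minus strand) encodes p28, the helical subunit of IL-27. It ran from 2.18 through 4.25 to 7.63 CPM in CTR-PBS mice, where the highest value belonged to the gene-poor library P200_1.1_CTR_PBS, and from 10.9 through 21.3 to 32.1 CPM in CTR-LPS mice. In ELS mice it ran from 3.09 through 3.92 to 8.196 CPM after PBS and stood at 11.23, 12.8, 29.6, 40.4 and 70.0 CPM after LPS. The groups did not overlap in either condition. The log2 fold change was 2.35 in CTR (SE 0.45, adjusted p = 7.94e-05) and 2.86 in ELS mice (SE 0.50, adjusted p = 2.73e-05). Its partner subunit Ebi3 passed the fold threshold in ELS mice (log2 fold change 1.27, SE 0.17, adjusted p = 7.50e-08) and not in CTR mice (0.69, SE 0.15, adjusted p = 0.000522). The interaction of LPS and ELS was not called for Ebi3 or any other gene.

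Osm (chr11:4186420-4191026, plus strand) encodes oncostatin M, a gp130 cytokine of activated macrophages, and was the most uniform responder. It ran from 19.9 through 22.2 to 33.2 CPM in CTR-PBS and from 104 through 132 to 165 CPM in CTR-LPS mice. In ELS mice it ran from 19.25 through 22.0 to 25.9 CPM after PBS and stood at 113, 131, 136, 139 and 143 CPM after LPS. The lowest LPS mouse was thus far above the highest PBS mouse. The highest LPS value was only 1.59 times the lowest in CTR and 1.27 times in ELS mice, where the same quotient was 3.24 and 10.2 for Tnf and 5.52 and 10.6 for Il12b. The log2 fold change was 2.49 (SE 0.24, adjusted p = 7.94e-12) in CTR and 2.57 (SE 0.27, adjusted p = 1.03e-10) in ELS mice.

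Csf1 (chr3:107648364-107667806, minus strand) rose least among the called members, and its groups overlapped. In CTR mice it ran from 13.7 through 19.0 to 43.8 CPM after PBS and from 24.2 through 47.2 to 129 CPM after LPS. In ELS mice it ran from 18.0 through 25.9 to 33.9 CPM after PBS and was 27.1, 43.0, 59.1, 89.5 and 104 CPM after LPS. The overlap in CTR mice came from mice P200_1.1_CTR_PBS and P200_5.1_CTR_PBS, at 42.4 and 43.8 CPM, while the other 5 did not exceed 21.8 CPM. The log2 fold change was 1.37 (SE 0.33, adjusted p = 0.00184) and 1.31 (SE 0.36, adjusted p = 0.01) in CTR and ELS mice. The ELS call was lost without mouse P200_2.2_ELS_LPS (log2 fold change 1.07, adjusted p = 0.0585).

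Il6 (chr5:30218112-30224979, plus strand), the fever and acute-phase cytokine, was already well above 10 CPM in adult PBS microglia and did not pass the test. In CTR mice it ran from 11.09 through 18.8 to 22.3 CPM after PBS and from 28.4 through 41.7 to 62.8 CPM after LPS, with no overlap. In ELS mice it ran from 15.11 through 18.22 to 25.8 CPM after PBS and was 14.5, 33.2, 47.2, 67.2 and 69.5 CPM after LPS, where mouse P200_11.2_ELS_LPS, also the lowest for Tnf, lay below every ELS-PBS mouse. The log2 fold change was 1.29 (SE 0.58, adjusted p = 0.133) in CTR and 1.28 (SE 0.65, adjusted p = 0.21) in ELS mice. The model estimated its spread over all 6 groups, and Il6 was near 0 and scattered at P9. When only the groups compared were fitted, the adjusted p was 0.000149 in CTR mice and Il6 was called in both conditions. An exact two-sided permutation test of the mean log2 CPM, chosen after these values were seen, gave p = 0.000583 for 7 against 7 CTR mice and p = 0.039 for 5 against 6 ELS mice, the first being the smallest p that this design allows.

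**Figure D1:**
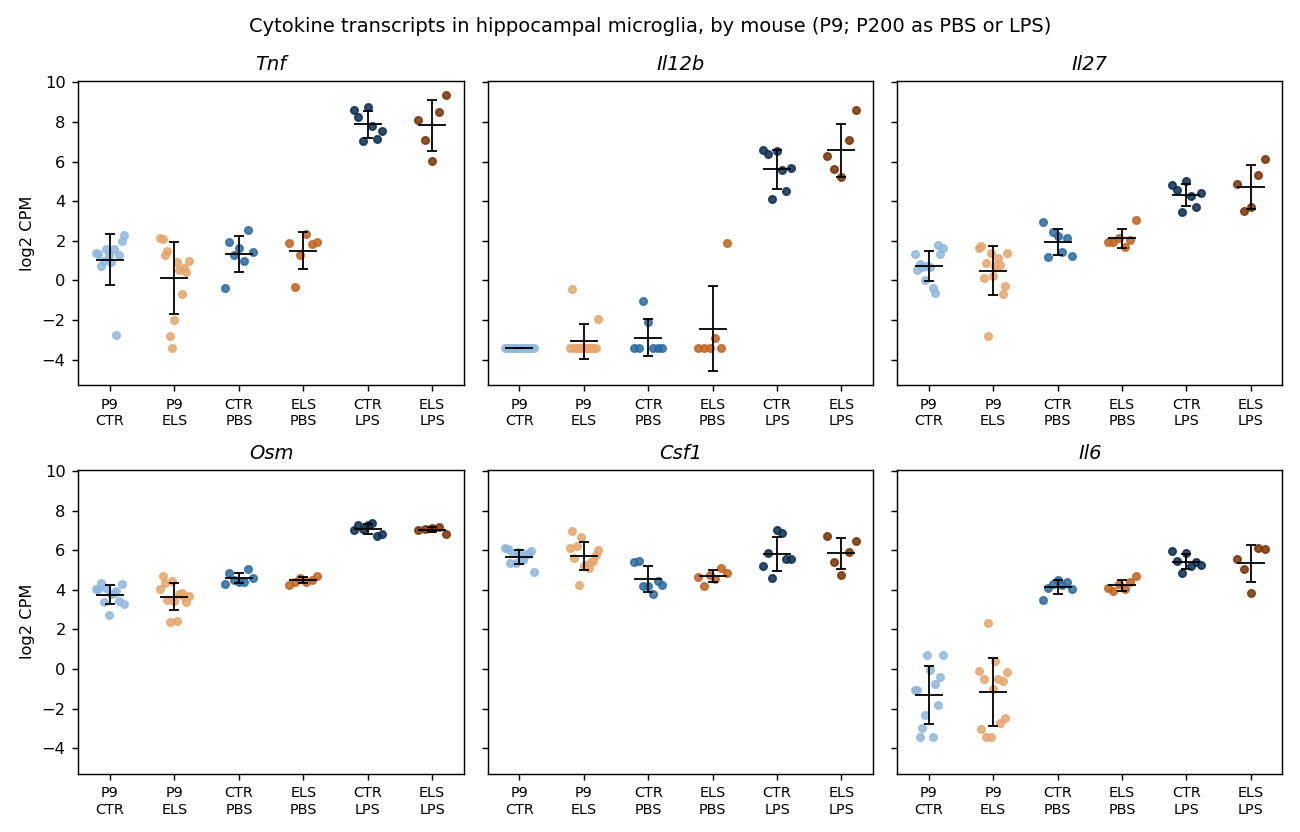
Log2 CPM (vertical axis, prior count of 2) of the 6 tested members in every mouse, by group (horizontal axis: P9-CTR, P9-ELS, then the P200 groups CTR-PBS, ELS-PBS, CTR-LPS and ELS-LPS). Points are mice and bars give the mean ± SD. Tnf and Il12b show the highest step from PBS to LPS, Osm the tightest LPS values, and Il6 a step between P9 and P200.

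Compared per kilobase of exon, the order of the members changed between states. In CTR-PBS mice the median was 9.76 CPM per kilobase for Osm, 7.74 for Il6, 3.81 for Il27, 3.23 for Csf1, 1.56 for Tnf and 0 for Il12b. In CTR-LPS mice it was 137 for Tnf, 58.22 for Osm, 19.08 for Il27, 18.6 for Il12b, 17.19 for Il6 and 8.03 for Csf1. Tnf thus moved from the lower end of this order to its top. In ELS-LPS mice Tnf (169) and Osm (60.1) again led, Il12b (28.6) and Il27 (26.5) followed, and Il6 (19.4) and Csf1 (10.1) came last. The places of Il27, Il12b and Il6 among each other lay within the spread of the mice.

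Other cell types and handling were checked beside these responses. The sum of 8 immediate early and handling stress genes was 296 to 570 CPM in PBS and 2350 to 7590 CPM in LPS mice, and its part in the LPS responses was not tested. The sum of 4 astrocyte markers was 300 to 503 CPM after PBS and 422 to 617 CPM after LPS, with the same limit. Microglial markers summed to 63600 to 73700 CPM after PBS and to 53300 to 68800 CPM after LPS. Monocyte markers (5 genes) summed to 0.712 to 14.9 CPM after PBS and to 1.64 to 10.5 CPM after LPS. Neutrophil markers summed to at most 1.05 CPM after PBS and at most 3.68 CPM after LPS, with a median of 0 in each PBS group and in CTR-LPS mice and of 1.24 CPM in ELS-LPS mice. Border-associated macrophage markers (4 genes) summed to 1.41 to 9.61 CPM after PBS and 1.70 to 7.60 CPM after LPS. The part of these sums in the LPS responses was not tested either.

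The next question was whether early-life stress changed the cytokine transcripts, after PBS, after LPS or at P9. No tested member was called in any of these comparisons. In PBS mice 0 of 6 members were called by edgeR, beside 0.156% of all genes, and Il12b alone had an unadjusted p under 0.05. In LPS mice 0 of 6 were called, beside 0% of all genes, and no member had an unadjusted p under 0.05. At P9 0 of 6 were called, beside 0% of all genes, again with Il12b alone under 0.05 unadjusted. The likelihood-ratio test, DESeq2 and limma voom also called none of them. Over all genes, 1622, 798 and 914 had an unadjusted p under 0.05 in PBS mice, in LPS mice and at P9.

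The intervals show what differences these groups could still hold if mice are taken as independent. The study assigned whole litters to ELS or CTR, so with littermates in a group these intervals may be too narrow. For Tnf the log2 difference of ELS against CTR was 0.14 in PBS mice (95% interval -0.90 to 1.18), 0.22 in LPS mice (-0.78 to 1.22) and -0.47 at P9 (-1.25 to 0.31). For Osm, the most precise member, it was -0.12 (-0.59 to 0.35), -0.04 (-0.53 to 0.44) and -0.04 (-0.38 to 0.30). A difference of 1 log2 unit in either direction therefore lay outside all 3 intervals of Osm in this model. For Tnf a rise of 1 unit lay inside the P200 intervals, and a fall of 1 unit lay inside the P9 interval. For Csf1 the differences were 0.03 (-0.62 to 0.69), -0.02 (-0.71 to 0.66) and 0.14 (-0.33 to 0.60), again less than 1 unit at either end. Il27 gave 0.12 (-0.75 to 1.0), 0.63 (-0.27 to 1.53) and -0.07 (-0.72 to 0.58), and Il6 gave 0.08 (-1.09 to 1.24), 0.07 (-1.15 to 1.29) and 0.70 (-0.32 to 1.71). Il6 and, after LPS, Il27 were thus left with wide intervals. The Il6 difference at P9 fell to 0.015 without both gene-poor P9-ELS libraries, of which P9_19.2_ELS held 96 of the 228 Il6 counts of its group.

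Il12b had the highest estimates, and they rested on few mice. In PBS mice its log2 difference was 2.72 (95% interval 0.33 to 5.1, p = 0.0311 unadjusted in edgeR, adjusted p = 0.427), carried by mouse P200_20.2_ELS_PBS, without which it was -2.65. At P9 it was 4.00 (0.42 to 7.58, adjusted p = 0.908 in edgeR), from 2 of 13 ELS mice at 0.65 and 0.161 CPM while all 12 CTR mice were at 0. After LPS it was 1.25 (-0.25 to 2.76, adjusted p = 1 in edgeR), with mouse P200_20.1_ELS_LPS at 392 CPM. The ELS mice with the highest Il12b in PBS and in LPS thus share the number 20 before the point of their label.

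The response to LPS was also compared between ELS and CTR mice directly. The interaction of LPS and ELS was called for 0 of 6 members in edgeR and 0% of all genes, with no member under an unadjusted p of 0.05 and 980 genes under it. The difference between the log2 fold changes was 0.08 for Tnf (95% interval -1.37 to 1.54), 0.08 for Osm (-0.60 to 0.75), -0.05 for Csf1 (-1.0 to 0.89), -0.01 for Il6 (-1.69 to 1.67), 0.51 for Il27 (-0.75 to 1.77) and -1.47 for Il12b (-4.30 to 1.36). The Il12b value turned to 3.90 without mouse P200_20.2_ELS_PBS, so its direction rests on that mouse. For Osm a response differing by more than 1 log2 unit between ELS and CTR mice lay outside the interval, again with mice taken as independent. The interaction of age and ELS was likewise called for 0 of 6 members, beside 0.0299% of all genes, with no member and 1712 genes under an unadjusted p of 0.05.

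**Figure D2:**
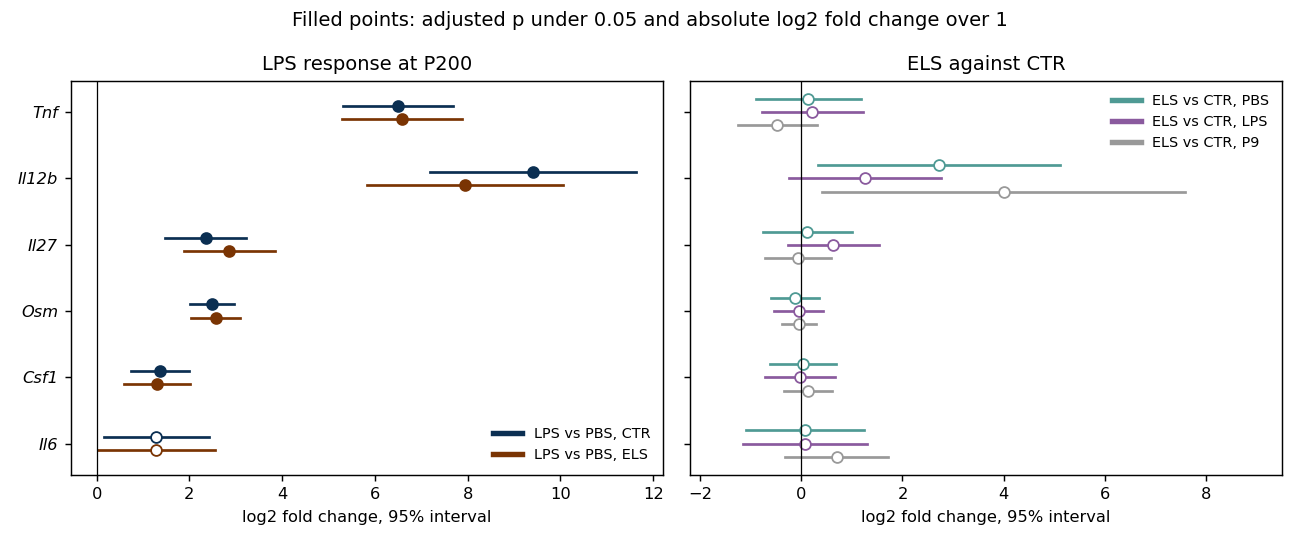
Log2 fold changes with 95% intervals (horizontal axis) of the 6 tested members for LPS against PBS at P200 in CTR and ELS mice (left) and for ELS against CTR in PBS mice, LPS mice and at P9 (right). Filled points passed both thresholds. All members but Il6 are filled on the left, with 6.50 and 6.59 for Tnf, and none is filled on the right.

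Within the LPS mice, all 6 pairs among Tnf, Il6, Il12b and Il27 varied together, while no pair with Osm passed the test. Over the 12 LPS mice, which carry 10 different numbers before the point of their labels (taken here as nests, which the labels do not define), 15 pairs of members were compared on the log2 CPM scale with a permutation test, and 7 pairs had an adjusted p under 0.05 for Pearson's r. Tnf and Il6 had r = 0.926 and Spearman's rho = 0.916 (permutation p = 2e-05, the smallest these permutations give, and 0.0001, adjusted 0.0001 and 0.00036). Tnf and Il27 had r = 0.902 and rho = 0.923 (permutation, adjusted p = 0.0001 and 0.00036), and Tnf and Il12b r = 0.837 and rho = 0.909 (permutation, adjusted p = 0.00162 and 0.00036). Mice with much Tnf thus also had much Il6, Il27 and Il12b. The microglial marker sum was 68126 CPM in the mouse with the lowest Tnf and 53340 and 56841 CPM in those with the 2 highest values, the monocyte sum was 2.72 CPM in the first and 3.21 and 10.5 CPM in the others, and the part of either was not tested. Without the 2 mice farthest from the median of Tnf, P200_11.2_ELS_LPS and P200_20.1_ELS_LPS, r was at 0.876, 0.931 and 0.881 for the same pairs over 10 mice. Within the 7 CTR mice alone r was 0.858, 0.950 and 0.951. No r is given within the 5 ELS mice, a group of fewer than 6.

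Il12b and Il27 had the highest Pearson's r over all 12 mice, with r = 0.937 and rho = 0.916 (permutation, adjusted p = 0.0001 and 0.00036). Without the 2 mice farthest from the median of Il12b, P200_20.1_ELS_LPS and P200_5.3_CTR_LPS, r was 0.873. The 0.931 of Tnf and Il27 was higher, but over a different set of 10 mice, and 2 other pairs had a higher rho. Csf1 followed Tnf less closely, with r = 0.654 and rho = 0.650 (permutation, adjusted p = 0.0445 and 0.0486), and r fell to 0.521 without the 2 mice outermost for Tnf. Osm gave r between -0.095 and 0.063 with Tnf, Il6, Il12b and Il27, and 0.316 with Csf1, and none of these passed. The low r of Osm with Tnf and Il12b rested on 2 mice for each pair. Without the 2 mice farthest from the median of Tnf it was 0.495, near the 0.521 of Csf1 with Tnf. Without the 2 farthest from the median of Il12b it was 0.486. Within the 7 CTR mice these r were 0.562 and 0.476. The mice with the lowest and the highest Tnf, 65.1 and 663 CPM, had 139 and 113 CPM of Osm, and their immediate early sums were 6535 and 7100 CPM.

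**Figure D3:**
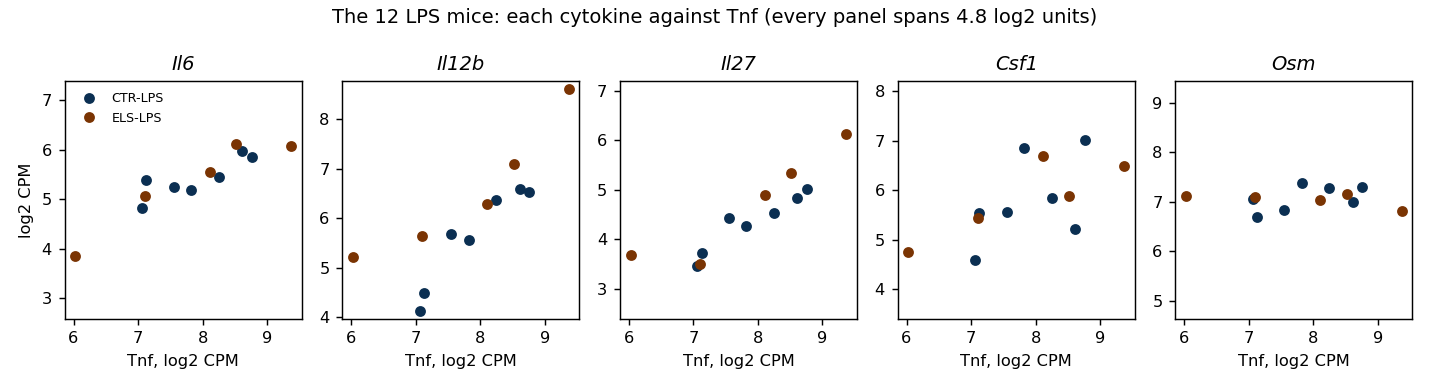
Log2 CPM of Il6, Il12b, Il27, Csf1 and Osm (vertical axes, each spanning the same number of log2 units) against log2 CPM of Tnf (horizontal axis) in the 12 LPS mice, coloured by CTR and ELS. Il6, Il12b and Il27 rise along Tnf (r = 0.926, 0.837 and 0.902), while Osm gives r = 0.063 over all 12 mice and 0.495 without P200_11.2_ELS_LPS and P200_20.1_ELS_LPS.

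The genes whose log2 CPM was most like each member over the 25 P200 mice were looked up as a description. PBS and LPS mice were pooled for this, so the likeness holds the step between them. For Tnf they were Pde4b, a cAMP phosphodiesterase (r = 0.989), Mob3c (0.987) and Gm14023 (0.986). For Osm they were Btg2, an immediate early growth inhibitor (0.988), Zfp36, which destabilises Tnf and other cytokine mRNAs (0.985), and the kinase Map3k8 (0.982). The 3 genes closest to Tnf and Osm differed, but lists this short can differ even between genes of nearly the same pattern. For Il12b they were Ccr7, a chemokine receptor (0.984), Gm16175 (0.984) and the nuclear NF-κB partner Bcl3 (0.979). For Il27 they were Ctdnep1 (0.965), the LPS co-receptor Cd14 (0.956) and Tnfsf9 (0.953), and for Il6 Samsn1 (0.952), Snx10 (0.948) and the receptor Tlr6 (0.947). Csf1 had no gene as close, with Bcl2l1 and Itga5 at 0.889 and Nfkb2 at 0.887.

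The members below the expression filter were rare but not silent. Csf3, which encodes the granulocyte growth factor G-CSF, was at 0 in all 25 P9 mice and all 6 ELS-PBS mice, and had 1 count in 1 of 7 CTR-PBS mice. After LPS it was found in 3 of 7 CTR mice, up to 0.619 CPM, and in 4 of 5 ELS mice, at 0.117, 1.11, 1.65 and 4.33 CPM. Mouse P200_2.2_ELS_LPS, at 1.11 CPM, had 15 counts among 15338010. This was under 1 CPM before TMM scaling, so Csf3 did not pass the filter. Against the floor of 3 counts over the PBS group, pooled Csf3 was at least 66.5-fold higher after LPS in ELS mice. In CTR mice the pooled ratio was 29.7, with a counting interval of 4.90 to 1210 because the PBS group held 1 count. The ELS-LPS mouse with the highest Csf3, P200_20.1_ELS_LPS, was also the highest for Tnf, Il12b and Il27.

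Il12a, which encodes p35, the helical partner of p40 in IL-12, was at 0 in all PBS mice. It was found in 3 of 7 CTR-LPS mice, at 0.180, 0.394 and 0.438 CPM, and in 3 of 5 ELS-LPS mice, at 0.329, 0.409 and 0.650 CPM. Against the floor of 3 counts over the PBS group this was at least 7.06-fold higher in CTR and 13.7-fold higher in ELS mice. IL-12 subunits were thus unequal in RNA after LPS, with median Il12b at 51.0 CPM and median Il12a at 0 in CTR-LPS mice, and with 28.6 against 0.186 CPM per kilobase in ELS-LPS mice. Il10, which dampens macrophage activation, had 6 counts in mouse P200_5.1_CTR_PBS (0.238 CPM), 13 counts in mouse P200_20.1_ELS_LPS (0.939 CPM) and none in the other 48 mice. Lif, a gp130 cytokine whose gene lies 16530 bases from Osm on chromosome 11, never exceeded 0.303 CPM and had at most 2 counts in any P200 mouse. Osm and its neighbour Lif thus differed in level by far in every P200 group. When no filter was applied, Il12a was called higher after LPS in both conditions and Csf3 in ELS mice. The same setting also called Il10 between ages in CTR mice, on the 6 counts of a single mouse.

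**Figure D4:**
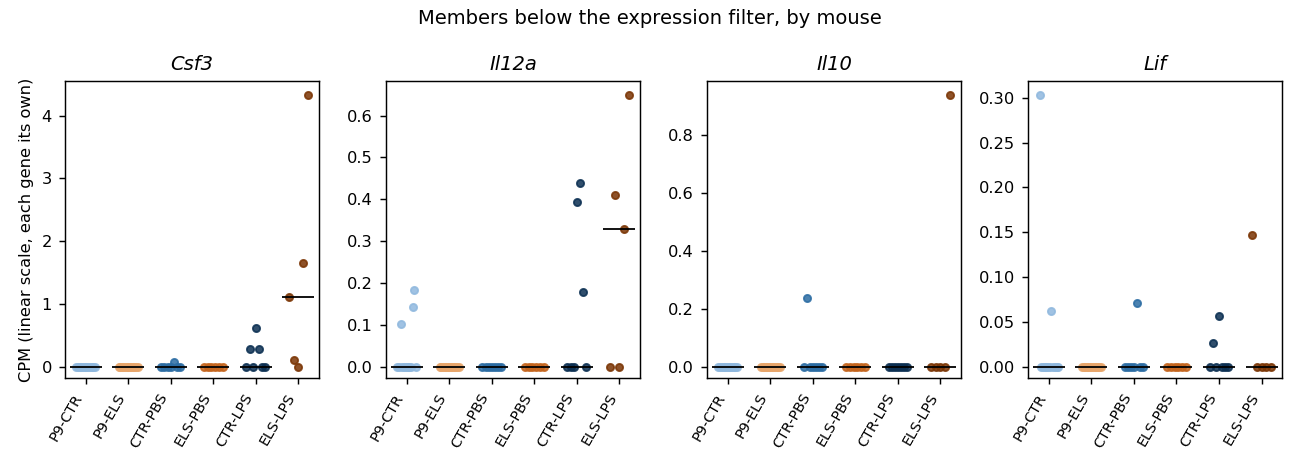
CPM on a linear scale (vertical axis, set separately for each gene) of the 4 members below the filter in every mouse, by group (horizontal axis). Points are mice and the dash is the group median. Csf3 reaches 4.33 CPM and Il12a 0.650 CPM in ELS-LPS mice, while Il10 and Lif are at 0 in nearly all mice.

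The levels at P9, without injection, were set against those of adult mice 3 hours after PBS. Age cannot be told apart from injection, cohort or Percoll in this comparison. In CTR mice Il6 and Il27 were higher and Csf1 lower at P200, that is 2 of 6 higher beside 7.98% of all genes, and 1 of 6 lower beside 18.5%. In ELS mice 3 of 6 were higher (Il6, Il27 and Il12b) beside 8.68%, and Csf1 was lower beside 17.5%. Il6 changed most. It ran from 0 through a median of 0.391 to 1.57 CPM in P9-CTR mice and from 0 through 0.574 to 4.86 CPM in P9-ELS mice, the highest value being that of the gene-poor library P9_19.2_ELS, and it was at least 11.09 CPM in every adult PBS mouse. No P9 mouse reached the adult range. The log2 fold change was 5.17 in CTR (SE 0.57, adjusted p = 1.42e-10) and 4.55 in ELS mice (SE 0.54, adjusted p = 1.15e-09).

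Il27 ran from 0.547 through 1.55 to 3.34 CPM in P9-CTR and from 0.0506 through 1.61 to 3.19 CPM in P9-ELS mice, and its log2 fold change to P200 was 1.24 (SE 0.38, adjusted p = 0.00665) and 1.43 (SE 0.39, adjusted p = 0.00223). The CTR call was lost in limma voom with the nest as random effect (1.25, adjusted p = 0.058). Its partner Ebi3 went the other way, from a mean of 96.2 to 41.2 CPM in CTR mice (log2 fold change -1.23, adjusted p = 2.90e-10) and from 104 to 36.4 CPM in ELS mice (-1.52, adjusted p = 4.16e-12). Both subunits of IL-27 thus changed between ages in opposite directions. Csf1 ran from 29.8 through 55.9 to 69.2 CPM in P9-CTR and from 18.9 through 49.5 to 123 CPM in P9-ELS mice, and fell by 1.05 (SE 0.30, adjusted p = 0.00326) and 1.15 (SE 0.31, adjusted p = 0.00231) on the log2 scale to P200. The Csf1 fall in CTR mice was close to the threshold of 1, and the call was lost when any one of mice P200_5.2_CTR_PBS, P200_8.1_CTR_PBS, P200_15.1_CTR_PBS or P200_18.2_CTR_PBS was left out, with falls between 0.944 and 0.990.

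Osm was higher at P200 by 0.78 (SE 0.20, adjusted p = 0.00131) in CTR and 0.70 (SE 0.21, adjusted p = 0.00525) in ELS mice on the log2 scale, below the fold threshold. Tnf differed by 0.22 (95% interval -0.68 to 1.12) and 0.83 (-0.09 to 1.75) and was not called. It ran from 0.0547 through 2.37 to 4.82 CPM in P9-CTR mice and from 0 through 1.43 to 4.32 CPM in P9-ELS mice, so P9 and adult PBS mice overlapped. The Il12b call in ELS mice (log2 fold change 2.59, SE 0.99, adjusted p = 0.0326) turned to -2.78 (adjusted p = 0.184) without mouse P200_20.2_ELS_PBS. Border-associated macrophage markers summed to 465 to 913 CPM at P9 against 1.41 to 9.61 CPM in adult PBS mice. Neutrophil markers summed to 9.07 to 30.8 against at most 1.05 CPM, with Ly6g and Retnlg at 0 in both. In each P9 group only 1 of the 6 neutrophil markers had a median over 1 CPM, and in P9-ELS mice Mmp8 and S100a9 were also at 0. Immediate early genes summed to 38.2 to 296 against 296 to 570 CPM. Microglial markers summed to 31000 to 61600 CPM at P9 against 63600 to 73700 CPM in adult PBS mice, astrocyte markers to 102 to 296 against 300 to 503 CPM, and neuron markers (4 genes) to 19.4 to 91.6 against 2.49 to 11.7 CPM. These sums moved with age alongside Il6, Il27 and Csf1, and their part in those differences was not tested.

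The genes around the cytokines were described from 3 lists of receptors, family ligands and regulators. Of 15 regulators, all tested, 13 rose and 1 fell after LPS in CTR mice, and 12 rose and 1 fell in ELS mice. Of all genes, 6.02% and 4.69% were called higher in CTR and ELS mice. The median over this list was 2.99 and 3.6 on the log2 scale, beside 0.00 and -0.04 over all genes. Bcl3 rose by 8.08 in CTR (SE 0.88, adjusted p = 3.27e-10) and 6.57 in ELS mice (SE 0.87, adjusted p = 7.08e-08), and Socs3, the feedback inhibitor of gp130 signalling, by 6.55 (SE 0.56, adjusted p = 1.45e-13) and 6.26 (SE 0.60, adjusted p = 8.67e-12). The NF-κB inhibitor Nfkbia went from a mean of 137 to 1620 CPM in CTR and from 126 to 2110 CPM in ELS mice. Nfkbiz, which co-activates Il6 and Il12b transcription, had a log2 fold change of 3.63 and 4.44, Cebpb of 3.59 and 3.95, and Tnfaip3, a brake on NF-κB, of 3.57 and 3.6. The exceptions, named after their values were seen, were Maf, an activator of Il10, which fell by 1.58 in CTR and 1.77 in ELS mice, Adam17, the protease that sheds TNF, at 0.04 and -0.09, and Socs1, called in CTR mice (2.15) and not in ELS mice (0.96, adjusted p = 0.318). Before LPS the Socs1 mean was 1.08 CPM in CTR and 5.32 CPM in ELS mice, a difference that was not called (adjusted p = 0.0571 in edgeR). After LPS the means were 4.79 CPM in CTR and 10.4 CPM in ELS mice, the latter with a highest value of 28.7 CPM.

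Of 13 receptors 12 were tested. After LPS 2 rose in CTR mice, beside 6.02% of all genes called higher, and 1 in ELS mice, beside 4.69%. The median of the 12 was 0.22 and 0.03 on the log2 scale. Osmr, the receptor of Osm, rose in both, from 0 to a mean of 2.1 CPM in CTR and from 0.0047 to 5.45 CPM in ELS mice, and Il27ra, the receptor of Il27, rose in CTR mice from 0 to 2.23 CPM. In ELS mice Il27ra went from a mean of 0.688 to 2.11 CPM and was not called (log2 fold change 1.59, adjusted p = 0.44 in edgeR). Its level after LPS was thus alike in both conditions. Most receptors of the members were expressed without LPS and did not pass the fold threshold. Csf1r, the receptor of Csf1, had a mean of 8040 CPM in CTR-PBS and 8720 in CTR-LPS mice (log2 fold change 0.12, adjusted p = 0.86), and Il6st, the shared gp130 chain, 436 and 347 CPM (-0.33, adjusted p = 0.368). The TNF receptors Tnfrsf1a and Tnfrsf1b had log2 fold changes of 0.73 and -0.52 in CTR and 0.87 and -0.46 in ELS mice, none past the fold threshold. Il27ra was the only gene of the lists called between ELS and CTR mice, in PBS mice, at a mean of 0.688 ± 1.31 (SD, n = 6) against 0 CPM (adjusted p = 0.0466 in edgeR), with 1 ELS mouse at 3.33 CPM. Of 10 family ligands and partner subunits only Ebi3, Clcf1 and Ltb were tested, none of which was called after LPS in CTR mice, and Csf2 and Lta were at 0 in all adult mice.

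With age, 1 of 12 tested receptors was higher and 2 lower in CTR mice, beside 7.98% and 18.5% of all genes, and 2 were higher and 1 lower in ELS mice, beside 8.68% and 17.5%. The lower ones were Osmr in both conditions and Il27ra in CTR mice, all with means under 1 CPM at both ages. Lifr, the receptor of Lif, was higher at P200 by 1.55 in CTR (SE 0.15, adjusted p = 1.72e-12) and 1.95 in ELS mice (SE 0.15, adjusted p = 1.71e-15). Of the ligands, Clcf1, another gp130 cytokine, was higher by 1.36 and 2.34, and Ltb, a TNF family member, by 2.09 and 2.19 (all with adjusted p of at most 0.000202). Of the regulators 2 were higher and 1 lower in CTR mice, and 5 were higher and 0 lower in ELS mice, beside the same shares of all genes. Nfkbia was higher in both (1.2 and 1.13).

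**Figure D5:**
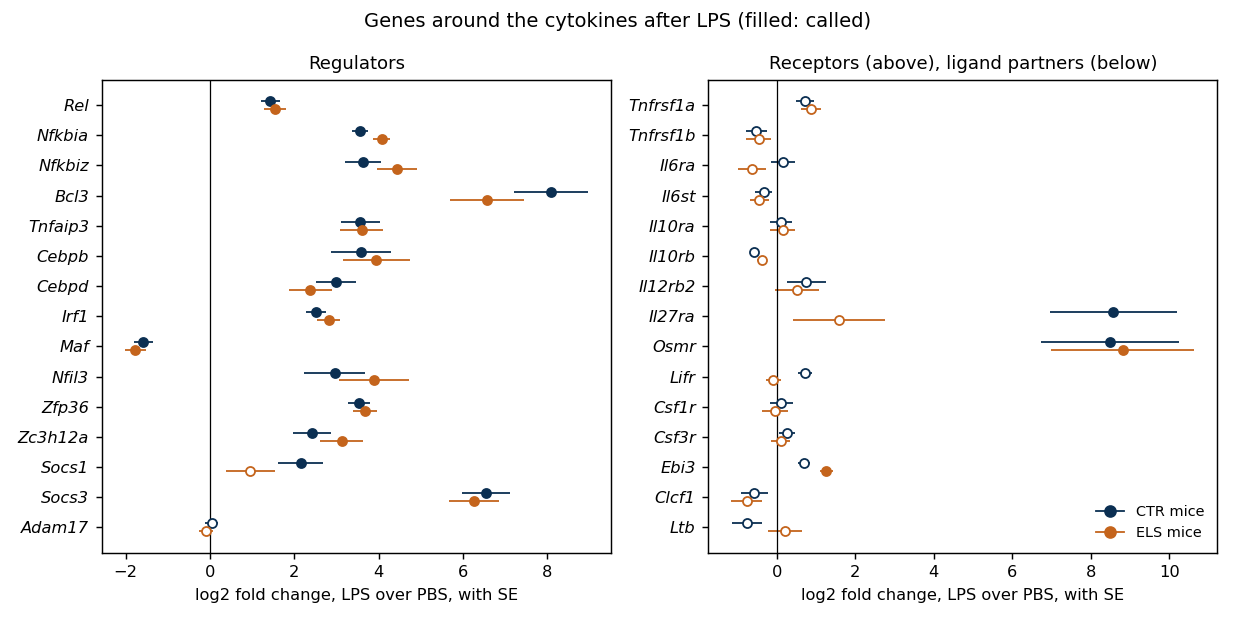
Log2 fold change of LPS over PBS with its SE (horizontal axis) for the tested regulators (left) and for the tested receptors and family ligands (right), in CTR and ELS mice. Filled points were called. Regulators such as Bcl3 (8.08 and 6.57) and Socs3 (6.55 and 6.26) stand to the right and Maf to the left of 0, while most receptors lie near 0.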

How the data were processed

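Hippocampal microglia of 50 mice were sequenced from poly-A RNA. The authors trimmed reads with cutadapt 2.10, aligned them to GRCm39 with STAR and counted uniquely mapped exonic reads per gene with HTSeq 0.11.0, and deposited the raw counts without normalization. The annotation release and strand setting are not given in the sources used here, so reads of overlapping antisense genes cannot be told apart. Groups follow the labels, which give 13 P9-ELS mice. The number before the point of a mouse label was taken as its nest, which the labels do not define.

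From the counts, genes that reached 1 CPM in over 2 mice entered the test, TMM factors were computed, and 1 model of 6 group means was fitted with edgeR 4.0.16 (quasi-likelihood test, Benjamini-Hochberg adjustment over 16696 genes, tested on simulated data). Mice were treated as independent, although several share that number and the study assigned ELS or CTR by litter. Per-mouse CPM use TMM library sizes and log2 CPM a prior count of 2. Correlations used 100000 permutations. Positions and exon lengths come from GENCODE vM39. All 10 members were named, of the lists up to 5 called genes per comparison with a mean of at least 1 CPM in the higher group, with receptors and partners of members, and the 3 genes most like each member. The members and lists were chosen with earlier results of these data known. Alternatives included DESeq2 1.42.0, limma 3.58.1 voom with nest as random effect, a nest block, other filters and leaving out mice. Python 3.11.15 and R 4.3.3 were used. Counts limit what can be seen: a count of 0 allows up to 3 counts, and intervals and floors cover counting error only.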

Additional observations from a re-analysis of the deposited data

Results flagged for a closer look

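Member values in the adult groups were checked for a mouse set far apart from its group by Dixon's ratio, over 24 pairs of gene and group whose highest value reached 1 CPM. This ratio marks about 1 in 20 groups by chance, and 3 pairs were marked. Il12b in mouse P200_20.2_ELS_PBS stood at 3.637 CPM while the other 5 mice did not exceed 0.0402 CPM. Il27 in the same mouse stood at 8.196 CPM, with the others between 3.09 and 4.29 CPM. Il12b in mouse P200_20.1_ELS_LPS stood at 391.9 CPM, with the others between 37.0 and 136 CPM. No interaction of LPS or age with ELS passed for any member.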

How the results depend on the processing

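The number of members called after LPS was 5 in both conditions and stayed between 5 and 6 over 26 alternatives in CTR mice and between 4 and 7 over 23 in ELS mice. Tnf, Il12b, Il27 and Osm were called in all of them. Il6 was called in 4 of 26 and 3 of 23 (adjusted p between 0.000149 and 0.207, and between 0.00447 and 0.365). Between ages the number was 3 in CTR (2 to 4 over 18 alternatives) and 4 in ELS mice (3 to 5 over 17), and the Il12b call in ELS mice was also lost under DESeq2, limma voom, a fit of only the groups compared and without the gene-poor libraries. Its log2 fold change ranged from -2.778 to 2.902 when 1 mouse was left out, the lowest being without mouse P200_20.2_ELS_PBS. No member was called between ELS and CTR mice or in an interaction under any alternative run. Of 1218 member values under alternatives 79 changed sign, and 1 of these was a called value, that of Il12b just given. Leaving out the 3 libraries with the fewest genes was chosen after the data were seen. Numbers in the mouse labels showed no pairing of the adult samples in a check over all tested genes. PBS and LPS mice of 1 nest deviated together with correlations of -0.041 to 0.084 over 10 nests, 0 of them over 0.1. With 1 or 2 mice per nest and treatment this check could miss a nest effect, and it left out the P9 mice. With the nest as a replicate block, 5 members in CTR and 6 in ELS mice were called, Il6 being gained in both (log2 fold change 1.21 and 1.22) and Csf1 lost in CTR mice (1.01, adjusted p = 0.07). Depth limits Il10, Il12a, Lif and Csf3, whose values rest on few counts.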
